A study of Homo sapiens with 4 samples.

Results

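The MIR548 family is a large group of primate microRNA (miRNA) genes derived from Made1, a short palindromic DNA transposon whose copies lie scattered across the genome. Members were taken as every autosomal feature of the deposited count tables whose Ensembl identifier carries a GENCODE symbol starting with MIR548, which gave 55 of the 7062 listed features. Another 7 features with such a symbol lie on the X chromosome and were left out, and 7 autosomal features without a GENCODE symbol sit at the position of a RefSeq MIR548 gene and are described only where named as such. The libraries came from HEK293T cells, a transformed human embryonic kidney line, after transient transfection with a plasmid for 52X T4A or for 52X WT, which are 52-repeat versions of the C-terminal domain (CTD) of RNA polymerase II with alanine in place of threonine at position 4 of the heptad or with the wild-type repeat. In both groups 1.5 µg of DNA per well was followed by 72 h in 2.5 µg/ml α-amanitin, a toxin that inhibits the endogenous polymerase, and cells without plasmid were stated to be gone by then. Each group had 2 libraries, which the study describes as biological replicates, and p-values measure only the spread between these libraries. No untransfected or untreated cells were analysed here.

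A transcript that runs through a Made1 copy can fold back on itself, because the ends of the transposon are inverted repeats. Drosha and Dicer cut such hairpins into mature miRNAs of about the length of any other miRNA. The seed, bases 2 to 8 of the mature strand, does most of the target pairing. Copies of a transposon resemble each other, so a short read from a MIR548 hairpin can match several genes.

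Mature sequences were printed for the members that were most abundant or that differed most between the groups, with the seed in capitals, as listed by RefSeq for GRCh38.p14. The table held a mature sequence for 39 of the 55 members and for 20 of the 28 that entered the test described below. MIR548H1 to MIR548H5 and MIR548I1 were not among them.
hsa-miR-548o-3p: cCAAAACUgcaguuacuuuugc
hsa-miR-548s: aUGGCCAAaacugcaguuauuuu
hsa-miR-548av-3p: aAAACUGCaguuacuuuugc
hsa-miR-548ar-3p: uAAAACUGcaguuauuuuugc
hsa-miR-548k: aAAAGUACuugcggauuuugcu
hsa-miR-548av-5p: aAAAGUACuugcggauuu
hsa-miR-548e-5p: cAAAAGCAaucgcgguuuuugc
hsa-miR-548ag: aAAGGUAAuugugguuucugc
hsa-miR-548f-3p: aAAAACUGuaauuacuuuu
hsa-miR-548g-3p: aAAACUGUaauuacuuuuguac
hsa-miR-548j-5p: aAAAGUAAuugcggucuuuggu

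Seeds differed more than the family name implies. The members' 43 mature sequences, counted by name, carried 25 seeds, of which 19 were used by 1 name alone. The names miR-548g-5p and miR-548x-5p stand for identical bases. The seed AAAGUAA was the most frequent, with 10 sequences, among them miR-548j-5p, and it occurred in 1 other human miRNA of the table. The pair miR-548k and miR-548av-5p shared AAAGUAC, and all 18 bases of miR-548av-5p lie inside the 22 bases of miR-548k. The pair miR-548f-3p and miR-548ar-3p shared AAAACUG.

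At any position of the mature strand, seed included, 3 short runs recurred, each searched as written. Sequences were again counted by name. The runs were chosen within the family, and sequences with a miR-548 name were left out of the comparison. The shares therefore describe the family and are not a test. AAAGUAA, itself the seed of 10 sequences, was in 15 of the 43 (34.9%), against 0.13% of 2315 other human mature sequences. Its reverse complement UUACUUU was in 13 (30.2%), against 0.173%. CUGCAGUUA was in 5 (11.6%), namely miR-548o-3p, miR-548s, miR-548av-3p, miR-548ar-3p and miR-548p, against 0.0864% of the others, and its last 3 bases can be the start of UUACUUU. Around CUGCAGUUA, the longest run shared with miR-548o-3p was 20 bases in miR-548av-3p, 17 in miR-548p, 15 in miR-548s and 13 in miR-548ar-3p, and no other member sequence shared more than 10.

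The hairpins were compared with their own reverse complements, and not with a Made1 sequence. The table held hairpins for 4 members, and that of MIR548AR (chr13:114244505-114244561, + strand, GRCh38, in an intron of CDC16) is shown because it entered the test and both of its mature arms are listed, which the capitals mark, 5p first.
MIR548AR: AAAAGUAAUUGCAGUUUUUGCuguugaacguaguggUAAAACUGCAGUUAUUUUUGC
Set against its own reverse complement at the best offset, 65.5% of the overlapping bases of the MIR548AR hairpin were equal. The corresponding values were 71.4% for both MIR548AS and MIR548AT and 83.1% for MIR548AW. Over 1557 other human hairpins of the table the median was 52.9%, and 22.9% of them reached the lowest value of the 4. These 1557 were limited to hairpins outside the family whose best overlap covered a large part of their length.

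Members lay on 21 autosomes and were 57 to 149 bases long. Of the 55, 33 lay inside a protein-coding gene, and 0 overlapped an exon of a host. With long non-coding RNAs counted as hosts, 29 were on the strand of a host, 10 only on the opposite strand and 16 in no annotated gene. The median over members of the mean count was 54.3 for the same-strand class, of which 16 were tested, 8.13 for the opposite-strand class, of which 5 were tested, and 8.13 for those without a host, of which 7 were tested. The most abundant member, MIR548O (chr7:102405742-102405855, - strand), lay opposite to its host PRKRIP1. MIR548O2, a copy named by RefSeq position and on the strand of RALGAPB, held near-equal counts. Those counts cannot be assigned to either copy. MIR548H1 and MIR548H3 (same strand), MIR548H2 (opposite strand) and MIR548H4 (no host) also held near-equal counts, with means of 460 to 463. The class medians may therefore include reads that belong to a copy in another class, and a difference between the classes was not tested.

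Total counts ran from 16180790 to 27370127 per library. The 55 members together held 7778 and 14832 counts in 52X T4A (replicates 1 and 2, an order kept throughout) and 7527 and 9814 in 52X WT. These were 0.0481%, 0.0542%, 0.0465% and 0.0512% of the counts, so the family was a minor part of the small RNA in every library. miRNAs typical of proliferating epithelial lines, such as the miR-17-92 cluster, were abundant (9 of 9 tested, summed level 206422 and 228416 in CPM, counts scaled to a common library size, in 52X T4A and 262839 and 236153 in 52X WT, with 2 lower and 0 higher at an unadjusted p below 0.05), and the liver marker MIR122 had a CPM of at most 0.0531. The muscle list summed to 96.7 and 81.6 CPM in 52X T4A and 30.5 and 33.1 in 52X WT (4 of 6 tested, 4 higher at an unadjusted p below 0.05), and the blood list to 2.40 and 2.47 against 0.685 and 1.65 (2 of 4 tested, 1 higher at that p). The neuron list (3 of 3 tested, 0 at that p) summed to 4.36 and 8.04 CPM in 52X T4A and 12.1 and 6.80 in 52X WT. The part of these lists in the members' values was not tested, and in bulk RNA fewer cells of a type cannot be told apart from less RNA per cell.

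Few members carried most of the signal. MIR548O had a mean of 4313 counts, 12 other members had at least 100, 16 had 10 to under 100, 20 had fewer than 10, and 6 had 0 counts in all 4 libraries. The 6 were MIR548C, MIR548X, MIR548X2, MIR548AJ1, MIR548AK and MIR548AS, for which a count of 0 allows up to 3 counts per library, or 0.0950 to 0.206 CPM. Such limits cover counting error only. Counts above 0 in every library were found for 36 members. A filter on low counts left 28 members in the test, and since CPM is not scaled by length, a larger CPM is more reads and not more molecules of a locus.

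MIR548O was listed at 249.8 and 205 CPM in 52X T4A and 182 and 221 CPM in 52X WT. It made up 50.8% and 43.6% of the members' counts in 52X T4A and 35.4% and 42.5% in 52X WT. The groups overlapped in its CPM, and the fitted log2 fold change of 52X T4A over 52X WT was 0.17 ± 0.25 (SE). Next came MIR548E (chr10:110988926-110989013, + strand, in an intron of SHOC2, a scaffold gene of Ras signalling), at 33.9 and 46.1 CPM in 52X T4A against 39.7 and 38.2, also overlapping, with a log2 fold change of 0.04 ± 0.30.

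**Figure D1:**
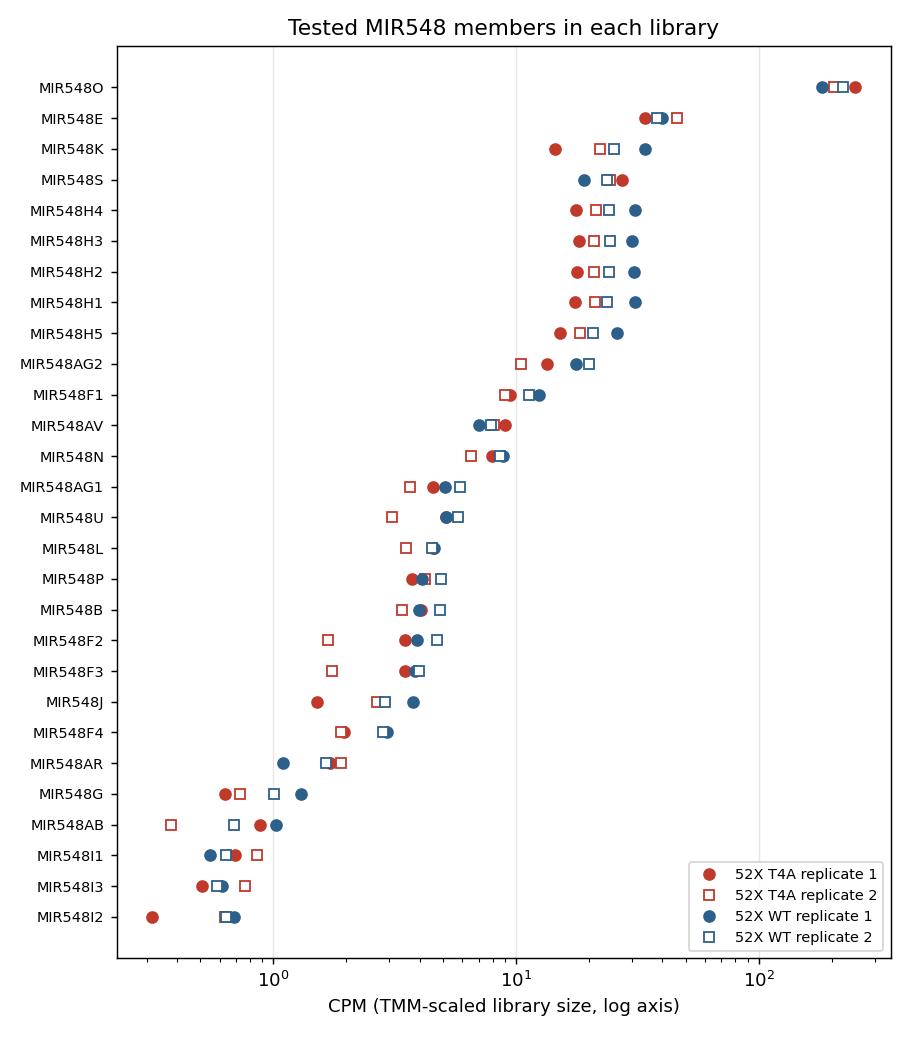
CPM of the 28 tested members in each of the 4 libraries, on a log axis, ordered by mean CPM, with 52X T4A in red, 52X WT in blue, replicate 1 filled and replicate 2 open. MIR548O lies above all others at 182 to 249.8 CPM, the next 8 members lie between 14.4 and 46.1, and for many members in the middle of the range the red symbols lie to the left of the blue ones.

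Copies with equal counts were looked for next. MIR548O and MIR548O2 (chr20:38516563-38516632, + strand, within the span of RALGAPB, identified by RefSeq position only) held 3953 and 3954 counts in the first library of 52X T4A and 6468 and 6467 in the other. In 52X WT the pair held 2663 and 2667 counts in replicate 1 and 4168 and 4171 in replicate 2. RefSeq lists miR-548o-3p for both genes, and their counts cannot be assigned to either.

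MIR548H1 to MIR548H4, on chromosomes 14, 16, 17 and 8, formed the only set linked by counts within 2% in all 4 libraries among members with a mean of at least 10 counts. Below that mean, MIR548Y and MIR548AD each held 0, 4, 3 and 2 counts. The 4 copies held 276 to 286 and 659 to 671 counts in the libraries of 52X T4A and 440 to 450 and 445 to 459 in those of 52X WT. The variance between copies was 0.0463 to 0.0765 times their mean, less than the ratio of 1 that independent counting would give. MIR548H5, on chromosome 6, held 239, 581, 381 and 390 counts in the same order, which was 85.2% to 87.3% of the mean of the other 4 in each library. Of 1480 tested features, 3 (0.203%) kept their ratio to that mean this closely, at a highest over lowest of 1.03, and the other two were MIR548H2 and MIR548H4, which enter that mean.

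**Figure D2:**
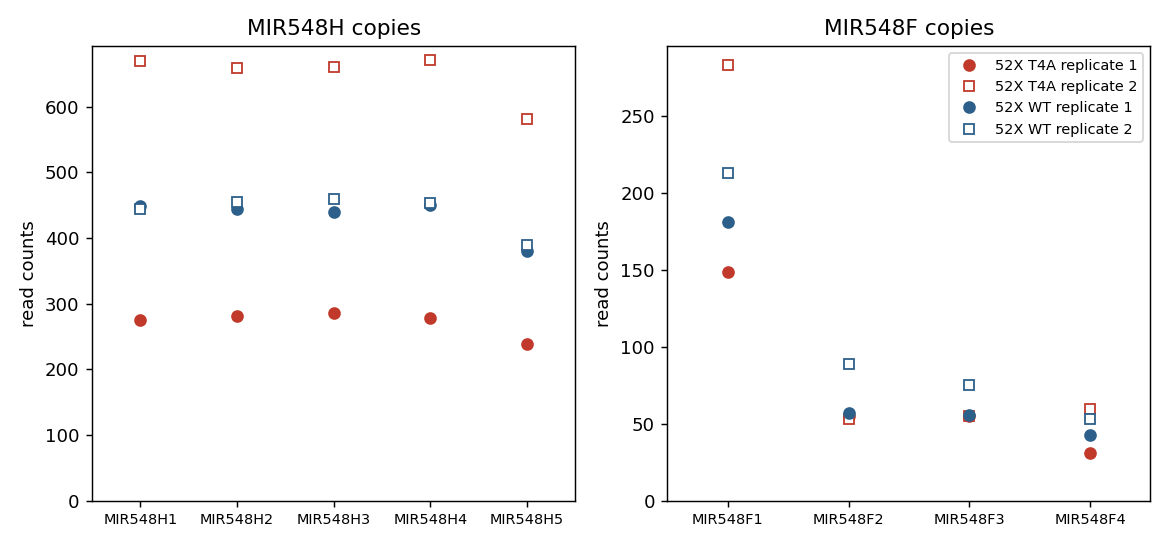
Read counts of the 5 MIR548H copies (left) and the 4 MIR548F copies (right) in each library, with axes that start at 0, 52X T4A in red, 52X WT in blue, replicate 1 filled and replicate 2 open. MIR548H1 to MIR548H4 hold near-equal counts within each library and MIR548H5 sits slightly lower, while MIR548F1 holds well above MIR548F2, MIR548F3 and MIR548F4 in all 4 libraries.

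A shared mature sequence did not always go with shared counts. RefSeq gives miR-548f-3p for MIR548F1 (chr10:54607874-54607957, - strand, in an intron of PCDH15), MIR548F2 (ERBB4), MIR548F3 (TMEM232) and MIR548F4 (opposite to CNTNAP2), and miR-548f-5p for MIR548F1. MIR548F1 held 149, 283, 181 and 213 counts, with 52X T4A before 52X WT, and the other 3 copies held 31 to 89. The variance between these copies was 37.6 to 114 times their mean, with MIR548F1 far above the rest. MIR548F2 and MIR548F3 were close to each other in all but 52X WT replicate 2. In library order they held 55 and 55, 53 and 55, 57 and 56, and 89 and 75 counts. Whether that pair shared reads was not tested. MIR548AG1 and MIR548AG2, which share miR-548ag, also differed, with 72, 115, 74 and 111 counts for MIR548AG1 and 213, 331, 258 and 375 for MIR548AG2. The ratio of MIR548AG1 to MIR548AG2 nevertheless stayed between 28.7% and 34.7%.

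At the locus of MIR548AA1 the strands could be compared at low counts. MIR548AA1 had 0, 0, 0 and 1 counts, and MIR548D1, a RefSeq gene on the other strand, had 3, 16, 6 and 1, so they were equal in 52X WT replicate 2.

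The comparison of 52X T4A with 52X WT asks whether the level of these miRNAs differs when the CTD lacks the threonine of its heptads that can carry phosphate. By the quasi-likelihood test of edgeR with Benjamini-Hochberg adjustment over 1480 features, 0 of the 28 tested members were called at an adjusted p below 0.05 and a fold change above 1.5, against 2 features called in all (0.135%). The members' adjusted p in edgeR after Benjamini-Hochberg ran from 0.467 to 0.981. At an unadjusted edgeR p below 0.05 there were 0 members, with 59 features higher in 52X T4A (3.99%) and 93 lower (6.28%) over the whole table. DESeq2 called 30 features and 0 of the 20 tested members to which it gave an adjusted p, and gave none to the other 8. The standard errors were 0.25 to 0.57 on the log2 scale.

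The fold changes leaned to lower levels in 52X T4A without passing the test. Of the 28 tested members, 7 had a log2 fold change above 0 and 21 below, and the median was -0.43, beside -0.05 over all tested features, -0.02 over all tested miRNAs and -0.01 over tested miRNAs outside the family. The list of miRNAs typical of epithelial lines leaned the same way, with a median of -0.48, 7 of 9 below 0 and 6 of 9 lower in both 52X T4A libraries. The members' values ran from -0.78 to 0.40. Both libraries of 52X T4A were below both libraries of 52X WT in CPM for 17 members (60.7%), against 21.2% of all tested features, and above both for 4 members (14.3%), against 18.9%. With MIR548H1 alone for the set MIR548H1 to MIR548H4, whose counts are not independent, 14 of 25 members (56%) were lower and 4 (16%) higher. MIR548H5 and the MIR548F, MIR548AG and MIR548I copies stayed among the 25, so these need not be independent of each other either.

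These counts depended on the scaling of the libraries. With library size alone as the scale, 8 members (28.6%) were lower in both libraries, against 13.2% of all features, and 5 (17.9%) were higher, against 29.4%. With upper quartile factors, 10 members (35.7%) were lower, against 15.1% of all. The median log2 fold change of the members was then -0.27 and -0.28, and that of all features shifted to 0.14 and 0.13, so the members' median stayed below that of the table under each scaling tried.

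**Figure D3:**
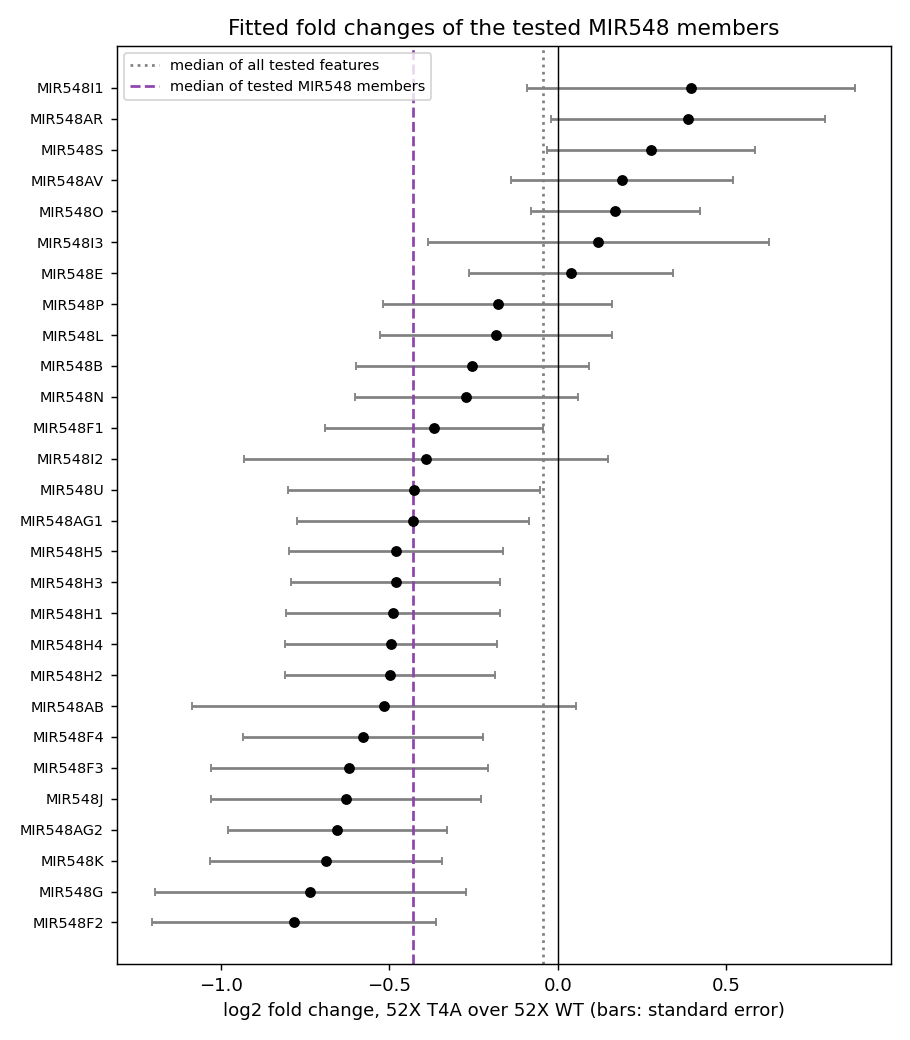
Fitted log2 fold change of 52X T4A over 52X WT for each tested member (points) with its standard error (bars), sorted by value. The solid line is 0, the dotted line the median of all tested features (-0.05) and the dashed line the median of the 28 members (-0.43), and 21 members lie below 0, none of them called.

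Differences between library pairs were set against this median. Across the tested members, the median log2 ratio of 52X T4A replicate 1 over 52X WT was -0.22 for replicate 1 and -0.32 for replicate 2, and that of 52X T4A replicate 2 was -0.48 and -0.21. Between replicates the medians were -0.05 for 52X T4A and 0.05 for 52X WT. Single members varied more: over the members, the replicates of 52X T4A had log2 ratios with an SD of 0.52, and those of 52X WT an SD of 0.29. The groups of 2 libraries allow no exact permutation p below 1 in 3, so the median was not tested.

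Among the members with lower values in 52X T4A, MIR548K was the most abundant (chr11:70283955-70284070, + strand, in an intron of PPFIA1, a gene for a liprin scaffold protein). It was at 14.4 and 22.2 CPM in 52X T4A and 33.9 and 25.4 CPM in 52X WT. The groups did not overlap, the log2 fold change was -0.69 ± 0.34 (SE), and the edgeR adjusted p by Benjamini-Hochberg was 0.467. With a library left out the value ran from -1.02 (without 52X T4A replicate 2) to -0.43 (without 52X T4A replicate 1). Without 52X WT replicate 2 it was -0.88 and edgeR called it, with a Benjamini-Hochberg adjusted p of 0.0450, in a fit that called 218 features in all and assumes that the lone library varies like the other group.

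MIR548AG2 (chr20:60564562-60564625, + strand, in no annotated gene) was at 13.5 and 10.5 CPM in 52X T4A and 17.7 and 19.9 in 52X WT, a log2 fold change of -0.65 ± 0.32. MIR548H1 to MIR548H4 were at 17.4 to 18.1 and 20.9 to 21.3 CPM in 52X T4A against 30.2 to 30.8 and 23.6 to 24.4 in 52X WT, with log2 fold changes from -0.50 to -0.48. For these members each library of 52X T4A lay below each of 52X WT, and the gap between the 52X WT replicates of MIR548H1 to MIR548H4 was larger than that from 52X WT replicate 2 to 52X T4A replicate 2.

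Among less abundant members, MIR548F2 and MIR548G had fold changes below that of MIR548K, and single libraries weighed on the values. MIR548F2, in an intron of the receptor tyrosine kinase gene ERBB4 (chr2:212426263-212426360, - strand), was at 3.47 and 1.68 CPM in 52X T4A and 3.91 and 4.73 in 52X WT (-0.78 ± 0.42), and the fold change was -1.38 without 52X T4A replicate 1 and -0.30 without 52X T4A replicate 2. MIR548G (chr4:147344629-147344717, - strand) was at 0.632 and 0.728 against 1.30 and 1.01 CPM (-0.74 ± 0.46), from 10 to 23 counts per library. MIR548J (chr22:26555212-26555323, - strand, in an intron of the tyrosylprotein sulfotransferase gene TPST2) was at 1.52 and 2.66 against 3.77 and 2.87 CPM (-0.63 ± 0.40), with -0.33 without 52X T4A replicate 1 and -1.11 without 52X T4A replicate 2. MIR548F1 was at 9.41 and 8.96 against 12.4 and 11.3 CPM (-0.37 ± 0.32), so the abundant copy of the miR-548f group also lay lower in both 52X T4A libraries.

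MIR548S (chr2:11767444-11767525, + strand, in an intron of the phosphatidate phosphatase gene LPIN1) was higher in both 52X T4A libraries, at 27.3 and 24.3 CPM against 18.98 and 23.6 (0.28 ± 0.31). MIR548AV (chr18:72853321-72853382, - strand, in an intron of NETO1) was at 9.03 and 8.08 against 7.06 and 7.91 CPM (0.19 ± 0.33). MIR548AR was at 1.71 and 1.90 against 1.10 and 1.65 CPM (0.39 ± 0.41). MIR548I1 (chr3:125790404-125790552, - strand) was at 0.695 and 0.855 against 0.548 and 0.637 CPM (0.40 ± 0.49), from 8 to 27 counts per library. Its copies by name did not go the same way. MIR548I2 was at 0.316 and 0.633 against 0.685 and 0.637 CPM (-0.39 ± 0.54), lower in both 52X T4A libraries. For MIR548I3 the groups overlapped (0.12 ± 0.51). No call was made, and the positive values rested in large part on 52X WT replicate 1: without it the log2 fold change was 0.030 for MIR548S, 0.013 for MIR548AV, 0.054 for MIR548AR and 0.22 for MIR548I1.

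Values of some members moved together across libraries. The counts of MIR548S were 10.9%, 11.9%, 10.4% and 10.7% of those of MIR548O, with 52X T4A before 52X WT. Those of MIR548AV were 3.62%, 3.94%, 3.87% and 3.57%. The highest ratio was 1.14 times the lowest for MIR548S and 1.10 times for MIR548AV, beside a median of 1.96 over the 1480 tested features, and 1.08% and 0.473% of these features, MIR548O and MIR548O2 among them, kept as even a ratio to MIR548O. By contrast, MIR548K was at 5.77%, 10.9%, 18.6% and 11.5% of MIR548O. Its lowest ratio was in 52X T4A replicate 1, where MIR548O was highest in CPM, and a high MIR548O by itself lowers such a ratio. MIR548S, MIR548AV and MIR548O are on different chromosomes and share the run CUGCAGUUA in their mature strands, and whether reads were shared between them was not tested. Apart from MIR548O2, the other tested features with that run were less even. The highest ratio was 1.51 times the lowest for MIR548P, 1.54 for MIR548AR and 1.44 for MIR548AH, which is named by RefSeq position. MIR548B, without the run in its listed strands, was at 1.35.

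**Figure D4:**
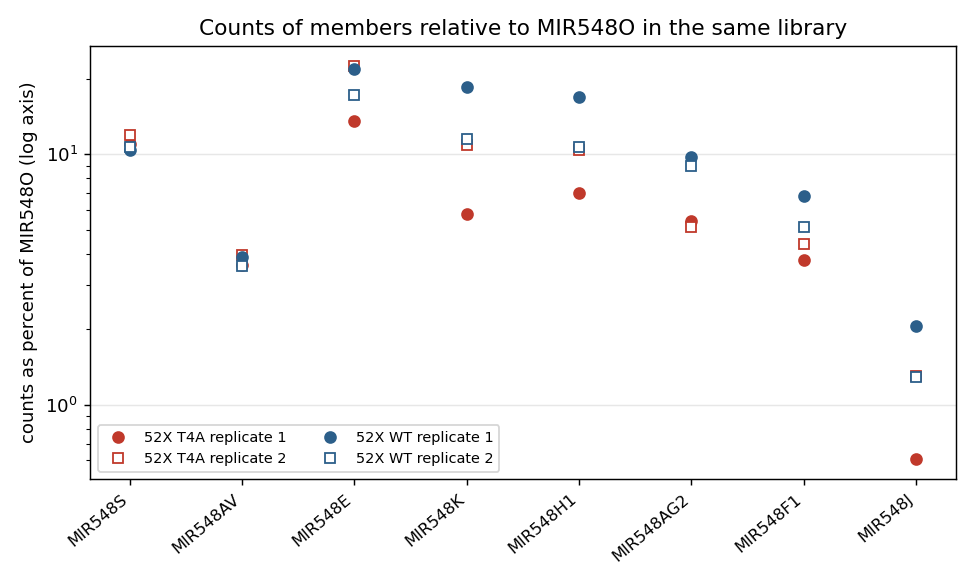
Counts of 8 named members as percent of the counts of MIR548O in the same library, on a log axis, with 52X T4A in red, 52X WT in blue, replicate 1 filled and replicate 2 open. MIR548S stays between 10.4% and 11.9% and MIR548AV between 3.57% and 3.94%, while MIR548K spreads from 5.77% to 18.6% and MIR548J from 0.607% to 2.07%.

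The members were then grouped by the run CUGCAGUUA, a grouping chosen after their values had been seen, so it is given as a description only. Of the 5 tested members whose mature strand holds it (MIR548O, MIR548S, MIR548AV, MIR548AR and MIR548P), 4 had a log2 fold change above 0, and the median was 0.19. MIR548P, in an intron of ST8SIA4, was the exception at -0.18 ± 0.34. Without 52X WT replicate 1 the values of the 5, in that order, were -0.064, 0.030, 0.013, 0.054 and -0.38. Of the 15 tested members with other sequences in the table, 1 (MIR548E) was above 0 and 14 below, with a median of -0.52. Several of the 15, MIR548E and MIR548K among them, had a single strand listed, so the run could not be searched in their other strand. Of the 8 without a sequence here, MIR548H4 and MIR548I3 on chromosome 8 among them, 2 were above 0 and 6 below. With features named by RefSeq position added, 6 of 7 with the run and 2 of 16 without it were above 0. MIR548AY, without the run in its listed strand, was at 0.49. Members that share reads are not independent within such groups.

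The sum over all 55 members was 491 and 469.8 CPM in 52X T4A and 516 and 521 in 52X WT, a log2 ratio of -0.11. Both 52X T4A libraries were below both 52X WT libraries, and the difference was larger than the SD of 0.033 between replicates of the summed log2 level, with no test at 2 libraries a group. Without MIR548O the sums were 242 and 265 against 333 and 299.9 CPM, a log2 ratio of -0.32. MIR548O alone, 43.0% of the members' level, gave 0.17. The SD between replicates was larger for these parts, at 0.10 without MIR548O and 0.20 for MIR548O alone. With the features named by RefSeq position added, the SD was 0.079 and the log2 ratio -0.024. The sum counts a read once for each copy it was assigned to, so it is not a number of molecules, and its sign turned with the scaling (0.05 with upper quartile factors and 0.07 with library size alone).

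Features named by RefSeq position gave further copies. MIR548AH, whose 3p strand shares 20 bases with miR-548o-3p, was at 2.65 and 2.69 CPM in 52X T4A and 1.78 and 2.02 in 52X WT (log2 fold change 0.49 ± 0.36). MIR548AY was at 2.21 and 2.91 against 2.06 and 1.65 CPM (0.49 ± 0.38). MIR548AZ (chr8:119325171-119325265, + strand) was at 0.632 and 0.602 against 1.23 and 1.65 CPM, with a log2 fold change of -1.23 ± 0.45 and an edgeR adjusted p by Benjamini-Hochberg of 0.419, from 10 to 31 counts per library. The groups did not overlap for these 3 features, and none was called. MIR579, a relative from the same transposon under another name, was at 2.21 and 3.10 CPM against 4.73 and 3.72 (-0.65 ± 0.37). The other relatives were too low to test, with 0, 2, 4 and 1 counts for MIR570 and 0 for MIR603 in all 4 libraries.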

How the data were processed

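Small RNA was sequenced as single-end 50 bp libraries of total RNA from 2 52X T4A and 2 52X WT samples. The authors deposited raw read counts per feature, not normalized, for each library; the labels name cutadapt v4.6, Bowtie2 v2.3.5.1, featureCounts v1.5.0 and the build hg38, without parameters, so the treatment of reads with several matches is not given in the sources used here. Coordinates are those of the deposited tables. Symbols came from GENCODE v44lift37 by identifier (5579 features) or, failing that, from a RefSeq GRCh38.p14 gene at the same position (887). Host genes were read from GENCODE on its own build, and for features named by RefSeq position from RefSeq gene spans.

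Counts were fitted over all features with the edgeR v4.0.16 quasi-likelihood test in R v4.3.3 (filterByExpr, minimum count of 10, TMM factors, group as the sole term), with Benjamini-Hochberg adjustment. CPM used TMM-scaled library sizes. SE is the log2 fold change divided by the square root of F. The members, lists, rules and alternatives were chosen with earlier results of these data known. Members named were the 12 most abundant tested ones, up to 5 with the largest rise and 5 with the largest fall among those whose groups did not overlap, their equal-count copies, MIR570, MIR579 and MIR603; others were named as copies, by sequence or after their values had been seen. Alternatives were other scalings and filters, DESeq2 v1.42.0, thresholds, 1 feature per set of shared reads, the replicate block and leaving out each library.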

Additional observations from a re-analysis of the deposited data

How the results depend on the processing

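No member was called under any scaling, filter, threshold or set rule tried, or by DESeq2, which gave 8 of the 28 no adjusted p; leaving out each library gave 0 to 1 called members (MIR548K, without 52X WT replicate 2). Over these fits 2 to 218 features were called in all, with 29 without a filter, 30 by DESeq2 and 9 with library size alone. The members' median log2 fold change moved from -0.43 to -0.28 (upper quartile factors), -0.27 (library size alone), -0.34 with 1 feature per set within 2% and -0.34 within 5%, and lay from -0.44 to -0.28 with a library left out. The log2 ratio of the summed level became 0.052 (upper quartile), 0.066 (library size alone), -0.0095 with 1 feature per set within 2%, -0.0020 within 5%, -0.32 without MIR548O and -0.024 with the RefSeq-position features added, and -0.21 to -0.061 with a library left out. The 5% sets and the added features were chosen after seeing the data. Of 442 refits of 33 named features that gave an adjusted p, 310 on all 4 libraries and 124 with a library left out kept their sign and call; signs turned for MIR548P with library size alone (0.0046), for MIR548E, MIR548L and MIR548AB without 52X T4A replicate 2, and for MIR548O, MIR548O2 and MIR548E without 52X WT replicate 1. With a library left out these ranged from -0.19 to 0.23 (MIR548E), -0.39 to 0.015 (MIR548L), -1.17 to 0.070 (MIR548AB), -0.064 to 0.32 (MIR548O) and -0.065 to 0.32 (MIR548O2). The causes were not tested. With the replicate number as a block, 0 members and 18 features were called and the members' median was -0.45; the numbers were not shown to pair the libraries, as the deviations of same-numbered libraries correlated at 0.0946 across 1480 features. Low counts kept the other members out of the test, and nothing was shown about them.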

Other observations

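Other repeat-derived or primate miRNAs gave different values from the MIR548 members, with no test between the lists. Of 57 features of the primate chromosome 19 cluster, a large tandem array of miRNAs known from placenta, 14 were tested. All 14 had a log2 fold change above 0, with a median of 0.36, and 0 were called. The summed level was 78.1 and 63.6 CPM in 52X T4A and 50.4 and 60.6 in 52X WT. Groups did not overlap for 4 of the 14, all higher in 52X T4A. Over all tested features, 18.9% were higher without overlap and 21.2% lower. None of the 10 MIR1302 features, from MER53 repeats, was deep enough to test, with a summed level of 0.885 and 1.08 CPM in 52X T4A and 0 and 0.691 in 52X WT. Of the 7 X-linked MIR548 features, 4 were tested, 1 was above 0 and 3 below, and the median was -0.31.

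MIR548V did not enter the test and was singled out after its values were seen, with 9 and 32 counts in 52X T4A and 8 and 2 in 52X WT. In CPM these were 0.569 and 1.01 against 0.548 and 0.106, so replicate 1 was near equal in both groups.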
